A study of Homo sapiens with 7 samples.

Results

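The 10 genes described here are the transcriptional core of the Hippo pathway and its best known target genes: the co-activators YAP1 and WWTR1 (which encodes TAZ), the DNA-binding partners TEAD1, TEAD3 and TEAD4, and the target genes CCN1, CCN2, ANKRD1, AMOTL2 and LATS2. CCN1 and CCN2 are the genes called CYR61 and CTGF in older annotations. They were chosen by name and are 10 of 56236 annotated genes that the deposited transcript tables cover. TE5 and KYSE140, both human esophageal squamous cell carcinoma (ESCC) lines, had received a non-targeting scramble shRNA, an shRNA against TP63 or an shRNA against SOX2, and TE5 cells also an shRNA against the long non-coding RNA CCAT1. Total RNA was sequenced as 1 library per condition and line, which gave 7 libraries of 68532611 to 98036494 estimated read counts. Per the labels, all groups were grown in the same serum-containing medium. The shRNAs were delivered with a lentiviral vector, and the time between infection and collection is not given in the sources used here. The labels name 1 shRNA per target, and those against TP63 and SOX2 carry the same name in both lines. Effects of an shRNA on other genes were not tested and cannot be told apart from silencing, even where both lines differ alike. The paper describes TP63 shRNAs against all isoforms or against a single isoform, and the labels do not say which was used. The purpose of the silencing experiments was to find genes under the control of the squamous transcription factors TP63 and SOX2 and of CCAT1.

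In the Hippo pathway, the kinases LATS1 and LATS2 phosphorylate YAP1 and TAZ, which keeps them out of the nucleus. When the kinases are inactive, YAP1 and TAZ enter the nucleus and activate genes through TEAD proteins, which recognise the DNA motif GGAATG. Because this control acts on the proteins, the mRNA levels of YAP1 and WWTR1 do not report the activity of the pathway by themselves, and the mRNA of target genes such as CCN1, CCN2 and ANKRD1 is commonly read instead. LATS2 and AMOTL2 are at the same time targets and inhibitors of YAP1 and TAZ, so that the pathway includes a negative feedback. In stratified squamous epithelium, YAP1 and TAZ are known to be active in basal cells, where TP63 is also expressed.

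The labels were checked against the silenced genes. Normalized counts are estimated counts scaled to a common library size by the TMM method. TP63 stood at 25.6% of the scramble level in the TE5 shTP63 library and at 25.9% in the KYSE140 shTP63 library. SOX2 stood at 39.8% in TE5 shSOX2 and at 76.3% in KYSE140 shSOX2, where its log2 fold change of -0.39 was not past the limit of 1 used below. In the shTP63 libraries, SOX2 stood at 67.8% in TE5 and at 104% in KYSE140. The CCAT1 transcript is listed under CASC19 in the annotation used here, and that entry stood at 37.2% in TE5 shCCAT1, at 37.3% in TE5 shTP63 and at 50.2% in TE5 shSOX2. The squamous markers KRT5, KRT6A, DSG3, PKP1 and PERP were abundant in both lines, whereas KRT14 had 7.2 to 29 normalized counts in TE5 and 24706 to 157310 in KYSE140. The scramble library of a line never shared a sequencing lane with its knockdown libraries (for TE5 the flow cell differed as well), and lane and silencing cannot be told apart in a difference that every knockdown of the line shows. The shTP63 and shSOX2 libraries of a line shared a lane.

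The co-activators differed between the lines before any gene was silenced. Levels of different genes are compared in TPM, a measure of abundance that corrects for transcript length. YAP1 was at 69.6 TPM in TE5 scramble and at 97.7 TPM in KYSE140 scramble, that is, TE5 held 0.712 times the KYSE140 level. WWTR1 was at 70.9 TPM in TE5 and at 7.55 TPM in KYSE140, a 9.4-fold difference in TPM. The TE5 scramble library thus had similar mRNA levels of both co-activators, and the KYSE140 scramble library had mainly YAP1.

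By normalized count, 4 of 5 target genes were higher in TE5 scramble than in KYSE140 scramble, as were WWTR1, TEAD1, TEAD3 and TEAD4. The share of all genes higher in TE5 was not determined. CCN1, which encodes a secreted matricellular protein, was at 108 TPM in TE5 and at 17.0 TPM in KYSE140. CCN2, its close relative, was at 3.19 TPM in TE5 and at 0.497 TPM in KYSE140. ANKRD1, which encodes an ankyrin repeat protein, was at 14.1 TPM in TE5 and had no count in KYSE140 scramble. A count of 0 allows up to 3 counts, and against that floor the normalized level of ANKRD1 in TE5 was at least 351-fold higher than in KYSE140, while the 95% counting interval of the log2 difference began at 8.15. AMOTL2, which encodes a junction protein of the angiomotin family, was 2.01-fold higher in TE5. LATS2 differed little, with 5.2 TPM in TE5 and 4.67 TPM in KYSE140, and its normalized count was slightly lower in TE5, by a log2 difference of -0.2 (95% counting interval -0.333 to -0.0742). Among the DNA-binding partners, TEAD4 led with 53.1 TPM in TE5, followed by TEAD3 with 42.0 TPM and the listed transcripts of TEAD1 with 11.5 TPM. In KYSE140 scramble, TEAD3 (30.1 TPM) stood above TEAD4 (24.3 TPM) and TEAD1 (4.88 TPM). These differences compare 2 libraries, one of each line, and their replicate error is unknown.

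**Figure D1:**
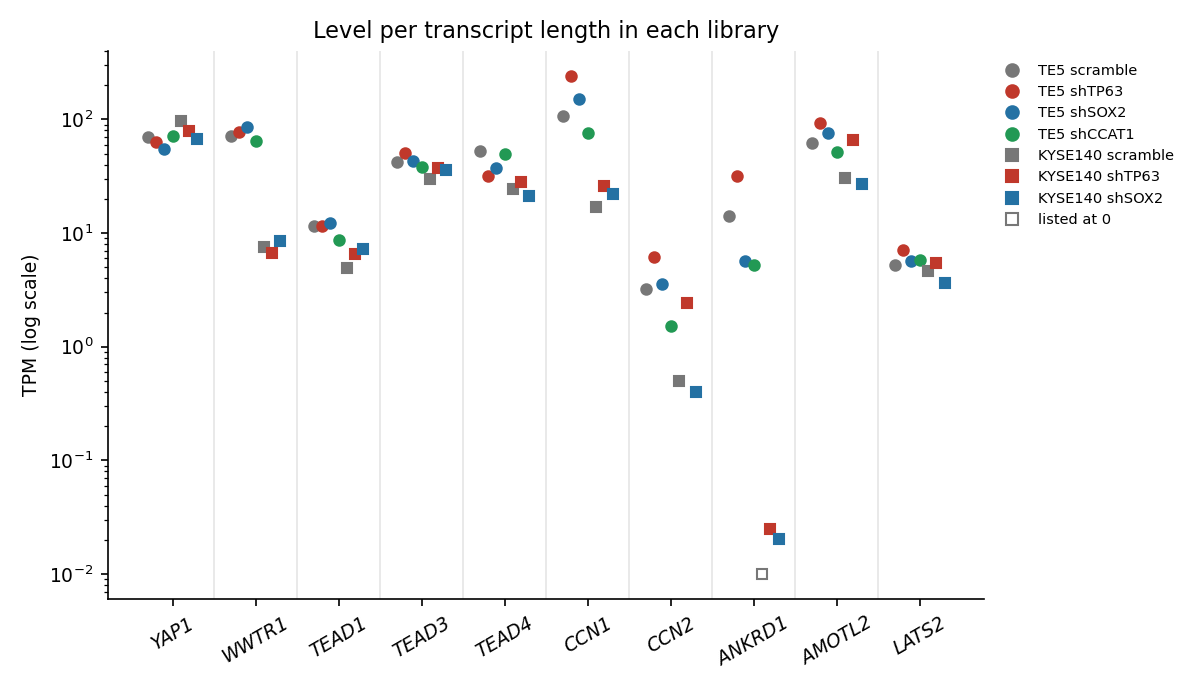
Level of each of the 10 genes in each of the 7 libraries, in TPM on a log axis, with circles for TE5, squares for KYSE140 and one colour per shRNA. The WWTR1, CCN2 and CCN1 points of the KYSE140 libraries lie below the TE5 points except for CCN2, where KYSE140 shTP63 (2.44 TPM) lies above TE5 shCCAT1 (1.53 TPM), and ANKRD1 is near or at 0 in KYSE140 (an open symbol marks a value listed at 0).

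Within every TE5 library, CCN1 ranked first among the 10 genes, at 75.8 to 242 TPM, and CCN2 ranked last, at 1.53 to 6.17 TPM. In each KYSE140 library, YAP1 ranked first, at 67.1 to 97.7 TPM, and ANKRD1 last, at 0 to 0.0247 TPM. CCN1 was at the 95.3 percentile of the 31136 genes detected in TE5 scramble and at the 75.0 percentile of the 28188 genes detected in KYSE140 scramble. Neighbours in this order can be nearly level, and without replicates such an order is not established: LATS2 and ANKRD1 both stood at 5.73 TPM in TE5 shSOX2, and WWTR1 and TEAD1 stood at 6.64 and 6.58 TPM in KYSE140 shTP63.

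The changes upon silencing were computed for each knockdown library against the scramble library of its line, as the log2 ratio of normalized counts plus 1. The 95% intervals given with them cover counting error only. A gene was counted as past the limit at a log2 fold change of 1 or more in either direction, among genes that reached 10 counts in either library. With 1 library on each side, no p-value belongs to such a difference. A lower level in RNA from a whole culture can mean fewer cells that express a gene or less RNA per cell, and these cannot be told apart.

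**Figure D2:**
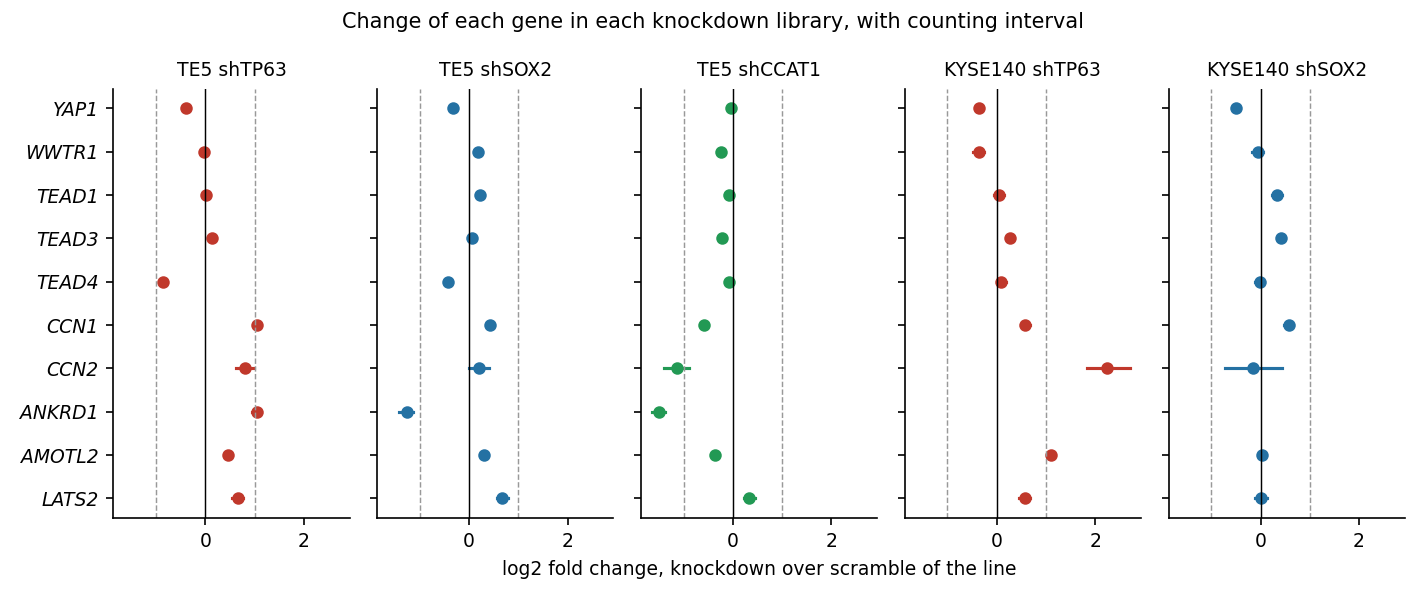
Log2 fold change of each of the 10 genes in the 5 knockdown libraries relative to the scramble library of the line (points), with the 95% counting interval (bars, often smaller than the point) and dashed lines at -1 and 1. The target genes in the lower part of each panel spread from -1.51 (ANKRD1, TE5 shCCAT1) to 2.24 (CCN2, KYSE140 shTP63), while the 5 co-activator and TEAD genes stay between -0.86 and 0.42; ANKRD1 has no point in KYSE140.

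Upon TP63 silencing, all 5 target genes in TE5 and the 4 that were measurable in KYSE140 stood above scramble, and YAP1 stood below it in both lines. Over all genes tested, 55.1% in TE5 and 54.2% in KYSE140 were above scramble. In the wider list of YAP-TEAD targets described below, 13 of 21 and 12 of 20 were. In TE5, CCN1 and ANKRD1 were past the limit upwards, 2 of 10 genes, where 15.1% of all 24405 genes tested were higher and 5.37% lower by as much. In KYSE140, CCN2 and AMOTL2 were past the limit upwards, 2 of the 9 genes that passed the count filter, where 8.74% of all genes were higher and 4.32% lower. The median log2 fold change over the 10 genes was 0.30 in TE5 and over the 9 genes in KYSE140 0.27, beside 0.08 and 0.04 over all genes. The number of genes past the limit in TE5 was thus close to the share among all genes.

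Upon SOX2 silencing, 1 of 10 genes in TE5 was past the limit, ANKRD1, which was lower, where 6.38% of all genes were higher and 4.9% lower. In KYSE140, where SOX2 itself was still at 76.3% of scramble, 0 of 9 genes were past it, while 6.9% of all genes were higher and 6.42% lower. The median over the genes was 0.18 in TE5 and 0.01 in KYSE140. Upon CCAT1 silencing in TE5, CCN2 and ANKRD1 were past the limit downwards, 2 of 10 genes, where 12.1% of all genes were higher and 5.96% lower. There, 9 of 10 genes were below scramble and LATS2 alone was above, with a median of -0.24 beside 0.04 over all genes. Of all genes, 53.4% were above scramble. With libraries scaled by total count instead, which moved all genes of this pair up by 0.16 on the log2 scale, YAP1, TEAD1 and TEAD4 were also above scramble and 6 of 10 genes below.

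YAP1 mRNA was lower in all 4 libraries with TP63 or SOX2 silencing. Its normalized counts in TE5 were 12770 in scramble, 9731 in shTP63, 10187 in shSOX2 and 12545 in shCCAT1. In KYSE140 they were 22556 in scramble, 17441 in shTP63 and 15990 in shSOX2. The scramble library was thus the highest of its line in both lines, with shCCAT1 close to it. The log2 fold changes were -0.39 and -0.33 upon TP63 and SOX2 silencing in TE5 and -0.37 and -0.50 in KYSE140, and -0.03 (-0.06 to 0.01) upon CCAT1 silencing. In TE5 shTP63 the value was -0.27 with scaling by total count and -0.12 on the TPM scale. Between the shTP63 and shSOX2 libraries of a lane, YAP1 differed by -0.07 in TE5 and by 0.13 in KYSE140.

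WWTR1 differed less, and not in one direction. Its normalized counts were 11599, 11324, 13063 and 9846 in TE5 scramble, shTP63, shSOX2 and shCCAT1, and 1529, 1185 and 1473 in KYSE140 scramble, shTP63 and shSOX2. The lowest TE5 value was that of shCCAT1 (log2 fold change -0.24) and the lowest KYSE140 value that of shTP63 (-0.37, interval -0.48 to -0.25). The value of -0.03 in TE5 shTP63 became 0.11 when TPM was used in place of normalized counts.

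The TEAD genes encode the proteins through which YAP1 and TAZ reach DNA. TEAD4 had 4010, 2202, 2969 and 3758 normalized counts in TE5 scramble, shTP63, shSOX2 and shCCAT1, and 2204, 2353 and 2179 in KYSE140 scramble, shTP63 and shSOX2. Both TE5 libraries with a silenced transcription factor were thus lower, at 54.9% of scramble in shTP63 and 74.0% in shSOX2, whereas the KYSE140 libraries stayed between 98.9% and 107% of scramble. TEAD3 had 6684, 7360, 6963 and 5680 normalized counts in TE5 and 5504, 6623 and 7389 in KYSE140. It was higher than scramble in the 4 libraries with TP63 or SOX2 silencing, by log2 fold changes of 0.06 to 0.42, and lower in shCCAT1 (-0.23).

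TEAD1 had 3309, 3347, 3866 and 3105 normalized counts in TE5 and 1808, 1857 and 2285 in KYSE140, in the same order of libraries. The shSOX2 library was the highest of its line in both lines. This holds for the transcripts that the annotation lists under TEAD1. A transcript that it does not list, ENST00000361905, lies next to TEAD1 in the deposited tables and had 4881, 4879, 4341 and 3934 estimated counts in the TE5 libraries and 2140, 3995 and 2664 in the KYSE140 libraries. Another unlisted transcript, ENST00000361985, is flanked by TEAD1 on both sides and had 0.21 to 733 estimated counts. With ENST00000361985 counted as TEAD1, the log2 fold change in shTP63 was -0.12 in place of 0.02 for TE5 and -0.22 in place of 0.04 for KYSE140. With both unlisted transcripts counted it was -0.28 for TE5 and 0.11 for KYSE140, and no direction is given for TEAD1.

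The promoters of the genes were examined for the TEAD motif before the target genes were compared. RefSeq windows of 250 bases before to 50 bases after the transcription start (build GRCh38.p14) were found for 7 of the 10 genes, 9 windows in all. There were no entries for TEAD1, TEAD4 and CCN1. The TEAD motif GGAATG, searched on both strands, was found in 5 windows of 5 genes, while 14.0% of 35116 RefSeq windows held it at least once, 1.37% at least 2 times and 0.128% at least 3 times. The motif TGAGTCA of the AP-1 factors, which often share regulatory regions with TEAD, was also searched on both strands and was in none of the 9 windows and in 4.95% of all windows. The windows of CCN2, ANKRD1 and AMOTL2 are shown because these genes differed most upon silencing, with each match in capitals, all 3 genes being on the minus strand and the sequence given in the direction of transcription. They lie at chr6:131951323-131951622 (CCN2), chr10:90921038-90921337 (ANKRD1) and chr3:134374398-134374697 (AMOTL2, the second of 2 windows).
CCN2: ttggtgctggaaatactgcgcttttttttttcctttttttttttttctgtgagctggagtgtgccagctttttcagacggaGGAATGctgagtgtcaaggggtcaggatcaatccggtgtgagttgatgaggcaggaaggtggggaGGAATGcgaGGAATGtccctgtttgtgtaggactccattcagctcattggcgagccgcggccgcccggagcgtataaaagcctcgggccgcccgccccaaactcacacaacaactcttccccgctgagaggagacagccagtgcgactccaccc
ANKRD1: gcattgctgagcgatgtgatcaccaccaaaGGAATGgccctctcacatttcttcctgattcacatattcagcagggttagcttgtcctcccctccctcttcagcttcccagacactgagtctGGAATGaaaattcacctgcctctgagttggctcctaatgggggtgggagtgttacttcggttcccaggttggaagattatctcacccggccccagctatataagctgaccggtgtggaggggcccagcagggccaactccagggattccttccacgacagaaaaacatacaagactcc
AMOTL2: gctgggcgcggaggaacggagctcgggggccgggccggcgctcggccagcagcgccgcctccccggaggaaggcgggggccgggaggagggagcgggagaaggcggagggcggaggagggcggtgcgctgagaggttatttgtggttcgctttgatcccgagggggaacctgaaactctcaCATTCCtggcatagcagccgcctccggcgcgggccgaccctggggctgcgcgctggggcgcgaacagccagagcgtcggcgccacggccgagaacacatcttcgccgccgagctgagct
The matches in CCN2 start at -169, -104 and -95 from the transcription start, those in ANKRD1 at -220 and -128, and the one in AMOTL2, on the opposite strand, at -69. A single match was also found at -162 in YAP1 and at 10 in LATS2, and none in the windows of WWTR1 and TEAD3. A match describes the letters of a window and does not show that a factor binds there.

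Of the 10 genes, CCN2 had the largest log2 fold change against scramble in any library, in KYSE140 shTP63. In each TE5 knockdown library, that of ANKRD1 was larger in size. The normalized counts of CCN2 were 392, 687, 449 and 177 in TE5 scramble, shTP63, shSOX2 and shCCAT1. In KYSE140 they were 70 in scramble, 336 in shTP63 and 63 in shSOX2. The shTP63 library was the highest of its line in both lines, and shCCAT1 the lowest in TE5. The log2 fold change was 0.81 (0.63 to 0.99) in TE5 shTP63 and 2.24 (1.83 to 2.71) in KYSE140 shTP63, a level of 479% of scramble. It was -1.14 (-1.39 to -0.90) in TE5 shCCAT1, or 45.2% of scramble, and -0.98 with scaling by total count. Upon SOX2 silencing the intervals included or touched 0 in both lines (0.00 to 0.40 in TE5 around 0.20, and -0.73 to 0.44 in KYSE140 around -0.15). Against the shSOX2 library of the same lane, CCN2 was higher in shTP63 by 0.61 (0.44 to 0.78) in TE5 and by 2.39 (1.99 to 2.86) in KYSE140.

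ANKRD1 was measurable in TE5 only, and there the silencing of TP63 and of SOX2 went in opposite directions. Its normalized counts were 1446 in scramble, 2972 in shTP63, 597 in shSOX2 and 506 in shCCAT1. In KYSE140 it had 0, 2.84 and 2.66 normalized counts in scramble, shTP63 and shSOX2, which did not pass the count filter and give no fold change. Only the shTP63 library was thus above scramble, and shSOX2 and shCCAT1 were both below it. The log2 fold changes were 1.04 (0.95 to 1.13) upon TP63 silencing, -1.27 (-1.42 to -1.14) upon SOX2 silencing and -1.51 (-1.65 to -1.38) upon CCAT1 silencing. Between the TE5 libraries of the same lane, shTP63 was 4.98-fold higher than shSOX2 (log2 2.31, interval 2.19 to 2.44).

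CCN1 had 11175, 22944, 15008 and 7469 normalized counts in TE5 scramble, shTP63, shSOX2 and shCCAT1, and 2186, 3272 and 3240 in KYSE140 scramble, shTP63 and shSOX2. The knockdowns of TP63 and SOX2 were above scramble in both lines and shCCAT1 was below. The log2 fold change was 1.04 (1.01 to 1.07) in TE5 shTP63 and 0.58 (0.50 to 0.67) in KYSE140 shTP63. It was 0.43 in TE5 shSOX2, 0.57 in KYSE140 shSOX2 and -0.58 in TE5 shCCAT1. In KYSE140 the shTP63 and shSOX2 libraries differed by 0.01 only (-0.06 to 0.09), whereas in TE5 shTP63 was higher by 0.61 (0.58 to 0.64).

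AMOTL2 binds YAP1 and retains it at cell junctions. It had 14073, 19343, 17451 and 10950 normalized counts in TE5 scramble, shTP63, shSOX2 and shCCAT1, and 8066, 17257 and 8189 in KYSE140 scramble, shTP63 and shSOX2. In KYSE140 the shTP63 library stood apart, with a log2 fold change of 1.10 (1.05 to 1.14), while shSOX2 was at 0.02 (-0.03 to 0.07). In TE5 the difference in shTP63 was smaller (0.46), and shCCAT1 was again below scramble (-0.36).

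LATS2, the kinase that inhibits YAP1 and TAZ, had 1087, 1712, 1727 and 1370 normalized counts in TE5 scramble, shTP63, shSOX2 and shCCAT1, and 1251, 1857 and 1259 in KYSE140 scramble, shTP63 and shSOX2. All knockdown libraries of TE5 were above scramble, and in KYSE140 shTP63 was. The log2 fold changes were 0.66, 0.67 and 0.33 in TE5 and 0.57 and 0.01 in KYSE140. In TPM, LATS2 was at 5.2, 7.05, 5.73 and 5.8 in the TE5 libraries and at 4.67, 5.47 and 3.6 in the KYSE140 libraries, and the log2 fold change on that scale was 0.14 in place of 0.67 in TE5 shSOX2, 0.22 in place of 0.57 in KYSE140 shTP63 and -0.36 in place of 0.01 in KYSE140 shSOX2. For LATS2 the size of a difference therefore depended on the measure, and in KYSE140 shSOX2 its sign too.

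**Figure D3:**
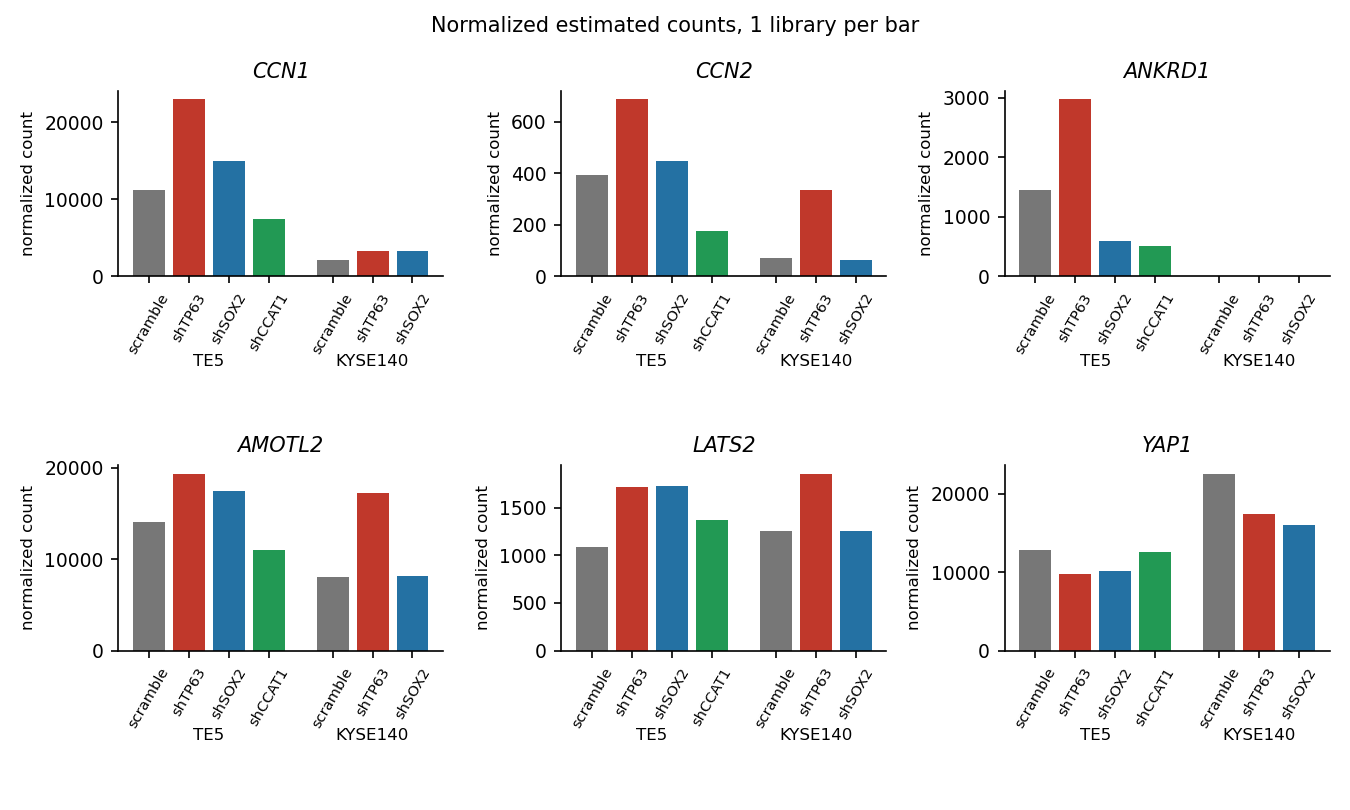
Normalized estimated counts (linear axes from 0) of the 5 target genes and YAP1, with 1 bar per library and one colour per shRNA. CCN2 is highest in shTP63 in both lines (687 and 336), ANKRD1 is high in TE5 shTP63 (2972) and without a visible bar in KYSE140, and YAP1 is highest in the scramble library of each line.

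A test over both lines took the lines as replicates, using the 6 libraries with scramble, shTP63 and shSOX2 and the cell line as a block. It asks only for a change that the lines share, and it has 2 residual degrees of freedom. The edgeR test used reports no SE, so the SE given with its values was calculated back from the log2 fold change and the test statistic. Upon TP63 silencing, 0 of 10 genes passed an adjusted p of 0.1 in edgeR's quasi-likelihood test with Benjamini-Hochberg adjustment, where 0.939% of 23438 genes did. The values closest to the threshold were those of CCN1 (log2 fold change 0.83, SE 0.18, adjusted p = 0.129), AMOTL2 (0.80, SE 0.22, adjusted p = 0.186) and CCN2 (1.58, SE 0.44, adjusted p = 0.196), each higher in shTP63 than in scramble in both lines. YAP1 was at -0.38 (SE 0.14, adjusted p = 0.275). Before adjustment, 6 of the 10 genes had p under 0.05 in edgeR's quasi-likelihood test. Of all 23438 genes, 1918 were lower and 1448 higher at such a p. ANKRD1 was among the 6 (unadjusted p = 0.029), although it was measurable in TE5 only. DESeq2 called 4 of 10 on the same libraries, where it called 7.9% of all genes. These were CCN1 (DESeq2 adjusted p = 0.00634), CCN2 (0.0229) and AMOTL2 (0.0359) as higher and YAP1 (0.0755) as lower.

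Upon SOX2 silencing, 0 of 10 genes passed in edgeR's quasi-likelihood test (0.145% of all genes did), with adjusted p of 0.419 to 0.984. At an unadjusted p under 0.05 in that test stood 3 of the 10, ANKRD1 among them. Of all 23438 genes, 1196 were lower and 899 higher at such a p. DESeq2 also called 0 of 10, where it called 3% of all genes. In the contrast of TP63 against SOX2 silencing, which does not use the lane of the scramble libraries for its direction, 1 of 10 genes passed in edgeR's quasi-likelihood test, where 4.22% of all genes did. This was ANKRD1 (log2 fold change 2.23, SE 0.43, adjusted p = 0.0589), which was higher in shTP63. As KYSE140 had fewer than 3 normalized counts of ANKRD1, the call rested on the TE5 libraries: without TE5 shSOX2 the value was -0.19 (adjusted p = 0.991), without TE5 shTP63 it was 1.62 (0.669), and DESeq2 gave 1.5 with an adjusted p of 0.492. It was also lost without the scramble library of TE5 (adjusted p = 0.135) or of KYSE140 (0.129). DESeq2 called 2 of 10 genes in this contrast, where it called 11.2% of all genes: CCN2 (1.53, adjusted p = 0.0202) and AMOTL2 (0.61, adjusted p = 0.0996). In single lanes, 1 of 10 genes was past a log2 difference of 1 in TE5 (ANKRD1, with 20.7% of all genes past it in either direction) and 2 of 9 in KYSE140 (CCN2 and AMOTL2, with 17.2% of all genes).

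The other genes of the pathway were described with lists. Of 22 listed YAP-TEAD targets, among them the 5 target genes above, 21 were found in the files and FOXF2 was not analysed here. In TE5 shCCAT1, 19 of 21 were below scramble, with a median log2 fold change of -0.38 beside 0.04 over all genes, and 3 were past the limit downwards: ANKRD1, CCN2 and IGFBP3, which encodes a binding protein of insulin-like growth factors. With scaling by total count 18 of 21 were below scramble, with a median of -0.22 beside 0.19 over all genes. The 3 of 21 past the limit stood beside 5.96% of all genes. With TMM scaling, 53.4% of all genes were above scramble in TE5 shCCAT1. Upon TP63 silencing in TE5, 13 of 21 were above scramble, with a median of 0.26 beside 0.08 over all genes, and with scaling by total count 17 of 21 were, with a median of 0.39 beside 0.20. There, 2 of 21 were past the limit upwards (CCN1 and ANKRD1) and IGFBP3 downwards, beside 15.1% and 5.37% of all genes. In KYSE140 12 of 20 were above, with a median of 0.19 beside 0.04 over all genes, and 3 were past the limit upwards (CCN2, AMOTL2 and CCDC80), beside 8.74% of all genes.

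IGFBP3 had 12549, 5989, 23456 and 6104 normalized counts in TE5 scramble, shTP63, shSOX2 and shCCAT1, and 50 to 93 in KYSE140. Its order among the TE5 libraries differed from that of ANKRD1, as shTP63 was below scramble (log2 fold change -1.07) and shSOX2 above it (0.90). CCDC80, a secreted protein gene, had 184, 422 and 645 normalized counts in KYSE140 scramble, shTP63 and shSOX2, and was past the limit upwards in both knockdowns (1.19 and 1.80). Upon SOX2 silencing, the list had 12 of 21 genes above scramble in TE5 and 13 of 20 in KYSE140, where the medians of 0.11 and 0.03 stood beside 0.00 and 0.04 over all genes. In KYSE140, 3 of 20 were past the limit upwards (CCDC80, PTPN14 and RBMS3), beside 6.9% of all genes, the same number as upon TP63 silencing. In TE5, 1 of 21 was past it downwards (ANKRD1), beside 4.9% of all genes. With scaling by total count, 9 of 20 were above scramble in KYSE140 shSOX2.

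**Figure D4:**
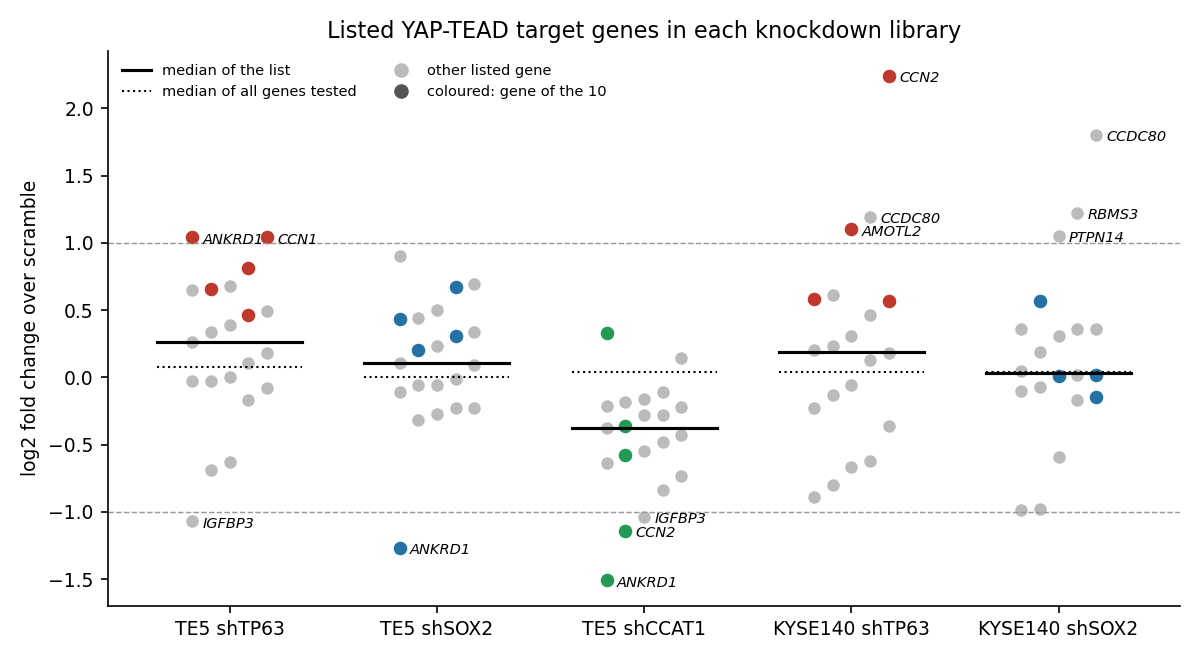
Log2 fold change over scramble of the listed YAP-TEAD target genes in the 5 knockdown libraries, with coloured points for the 5 targets among the 10 genes, grey points for the other listed genes, a solid line at the median of the list and a dotted line at the median of all genes tested. In TE5 shCCAT1, 19 of 21 points lie below 0, while the other libraries have points on both sides; genes past -1 or 1 (dashed) are named.

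Among the 27 listed genes of the Hippo kinase cascade and its regulators, the medians lay between -0.21 (TE5 shCCAT1) and 0.13 (KYSE140 shTP63). The test over both lines called 1 of 27 upon TP63 silencing, where it called 0.939% of all genes: AMOTL1, the relative of AMOTL2, fell (log2 fold change -1.32, SE 0.20, edgeR adjusted p = 0.085). AMOTL1 had 5447, 1622, 5863 and 4505 normalized counts in TE5 and 16189, 8546 and 20780 in KYSE140, in the order scramble, shTP63, shSOX2 and, in TE5, shCCAT1. AMOTL1 was thus lowest in shTP63 in both lines, where AMOTL2 was highest. The call of AMOTL1 was lost without the scramble library of TE5 (edgeR adjusted p = 0.779) or of KYSE140 (0.308), as was every other call upon TP63 silencing. Another angiomotin gene, AMOT, was higher in shTP63 than in shSOX2 (1.61, SE 0.23, edgeR adjusted p = 0.0343) and had 139, 333, 94 and 118 normalized counts in TE5 and 1291, 2289 and 882 in KYSE140. In that contrast AMOTL1, PTPN14 and TAOK1 were lower and TP53BP2 was higher in shTP63, so that 5 of 27 genes were called, where 4.22% of all genes were. The AMOT call was lost without KYSE140 scramble, where the value was 1.60. PTPN14, TAOK1 and TP53BP2 each lost theirs without either scramble library or KYSE140 shSOX2. TAOK1 and TP53BP2 also lost theirs without TE5 shSOX2 (values -0.62 and 0.67) or TE5 shTP63 (-0.50 and 0.54).

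Of the 10 listed TEAD genes, co-factors and competitors, 9 were tested. The test over both lines called 1 of 9 upon TP63 silencing, where it called 0.939% of all genes. TEAD2, the family member outside the 10 genes, fell upon TP63 silencing (log2 fold change -1.47, SE 0.25, edgeR adjusted p = 0.0938). It had 3530, 865, 2715 and 3058 normalized counts in TE5 and 3484, 1801 and 3432 in KYSE140, so that shTP63 was the lowest library of each line. The call was lost without the scramble library of TE5 (edgeR adjusted p = 0.846) or of KYSE140 (0.308). VGLL4, which competes with YAP1 for TEAD proteins, was lower in shTP63 than in shSOX2 (-0.99, SE 0.19, edgeR adjusted p = 0.0574), a call lost without TE5 scramble (0.156), KYSE140 scramble (0.162) or TE5 shSOX2 (0.134). In the contrast of TP63 against SOX2 silencing, 2 of 9 genes were called, TEAD2 and VGLL4, where 4.22% of all genes were. TEAD2 was lower in shTP63 there too (-1.24, SE 0.25, edgeR adjusted p = 0.0632). This call was lost without either scramble library, where the value was -1.28. AMOTL1, AMOT, TEAD2, VGLL4 and the other called genes of these lists were named after their values had been seen.

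Of the 6 genes of the CCN family, 5 passed the count filter in TE5, CCN1 and CCN2 among them. All 5 were above scramble in TE5 shTP63 and all 5 below in shCCAT1 (medians 0.81 and -0.93). Over all genes the medians were 0.08 and 0.04, with 55.1% and 53.4% of genes above scramble. CCN4, a low member of this family with 0 to 96 normalized counts in TE5, was past the limit in both of these libraries. In KYSE140, 4 of the family passed the filter. There, 2 were above scramble in shTP63 (CCN1 and CCN2) and 2 below (CCN3 and CCN5), with a median of 0.06 beside 0.04 over all genes. Listed next were 10 target genes of SRF and its MRTF co-activators, which respond to actin and share some genes with YAP1. All 10 were tested in TE5 and 8 in KYSE140. Against scramble, 0 were past the limit upwards in any knockdown library, where 6.38% to 15.1% of all genes were. Downwards, 1 was past it in each of TE5 shTP63 (VCL), TE5 shSOX2 (CNN1), TE5 shCCAT1 (FLNA) and KYSE140 shSOX2 (ACTA2). The shares of all genes lower by as much were 4.9% to 6.42% there. These genes were named after their values had been seen. CNN1 had 41 normalized counts in TE5 scramble and 9.4 in shSOX2, and ACTA2 had 23 in KYSE140 scramble and 1.6 in shSOX2. In KYSE140 shTP63, 8 of 8 tested SRF-MRTF genes were below scramble, with 0 past the limit. Their median of -0.36 stood beside 0.04 over all genes, of which 54.2% were above scramble.

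Markers of cell type also differed between the libraries. The 7 squamous markers summed to 1398 TPM in TE5 scramble, 614 in shTP63, 1208 in shSOX2 and 769 in shCCAT1, and to 13932, 9048 and 18946 TPM in KYSE140 scramble, shTP63 and shSOX2. The sum was thus lowest in shTP63 in both lines; TP63 is itself one of the markers. The 6 fibroblast markers summed to 13.3 to 27.1 TPM in TE5, highest in shTP63, and to 33.2 to 44.9 TPM in KYSE140, lowest in scramble, with LUM and PDGFRB at no more than 7.76 normalized counts in any library. In TE5, 4 of the 6 passed the count filter, and COL1A2, COL3A1 and DCN were past the limit upwards in shTP63 (median of the 4 genes 2.13) and in shSOX2 (1.55). COL1A2 had 13.4, 158 and 35.9 normalized counts in TE5 scramble, shTP63 and shSOX2, COL3A1 had 74.1, 470 and 408, and DCN had 5.04, 17.4 and 19.3. In TE5 shCCAT1, COL1A2 was past the limit upwards and COL3A1 downwards. In KYSE140, 0 of 3 tested were past it in shTP63, and in shSOX2 COL3A1 was past it upwards and COL1A2 downwards. The 3 leukocyte markers summed to 0.367 to 6.12 TPM, highest in TE5 shTP63, and PTPRC had at most 20 normalized counts. CD74 had 97.8 normalized counts in TE5 scramble, 343 in shTP63 and 274 in shCCAT1, past the limit in both, and was past it downwards in KYSE140 shSOX2. The part of these markers in the differences of CCN1, CCN2, ANKRD1 and AMOTL2 was not tested.

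The transcripts behind the genes were compared next. Among listed transcripts, a single one held 94.95% or more of the estimated count of TEAD3, CCN1, CCN2 and LATS2 in every library, and ANKRD1 and CCN2 had 1 transcript each. YAP1 was carried by YAP1-201, with 59.5% to 63.2% of the counts in TE5 and 68.8% to 72.9% in KYSE140, and by YAP1-202 with 11.6% to 20.6%. TEAD4-202 held 65.9% to 78.9% of TEAD4 and TEAD4-201 10.9% to 21.1%. WWTR1-203 held 66.2% to 76.8% in 6 libraries and 51.4% in KYSE140 shSOX2, where WWTR1-204 had 12.3% and at most 1.67% elsewhere.

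Of the 10 genes, AMOTL2 had the transcript shares that differed most between TE5 libraries. AMOTL2-202 had 30.4% of the estimated count in scramble, 39.0% in shTP63, 33.4% in shSOX2 and 43.2% in shCCAT1, against 27.9% to 28.9% in the 3 KYSE140 libraries. AMOTL2-201 had 67.6% in TE5 scramble and 50.5% in shCCAT1. Both transcripts are protein-coding and have the same first base in the annotation, at position 134093289 of chromosome 3 (hg19), and they end at 134074189 and 134074719. The share was larger in shCCAT1, where the gene was lower, as well as in shTP63, where it was higher. These shares are estimates from reads that fit several transcripts and carry an error that the deposited tables do not give.

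**Figure D5:**
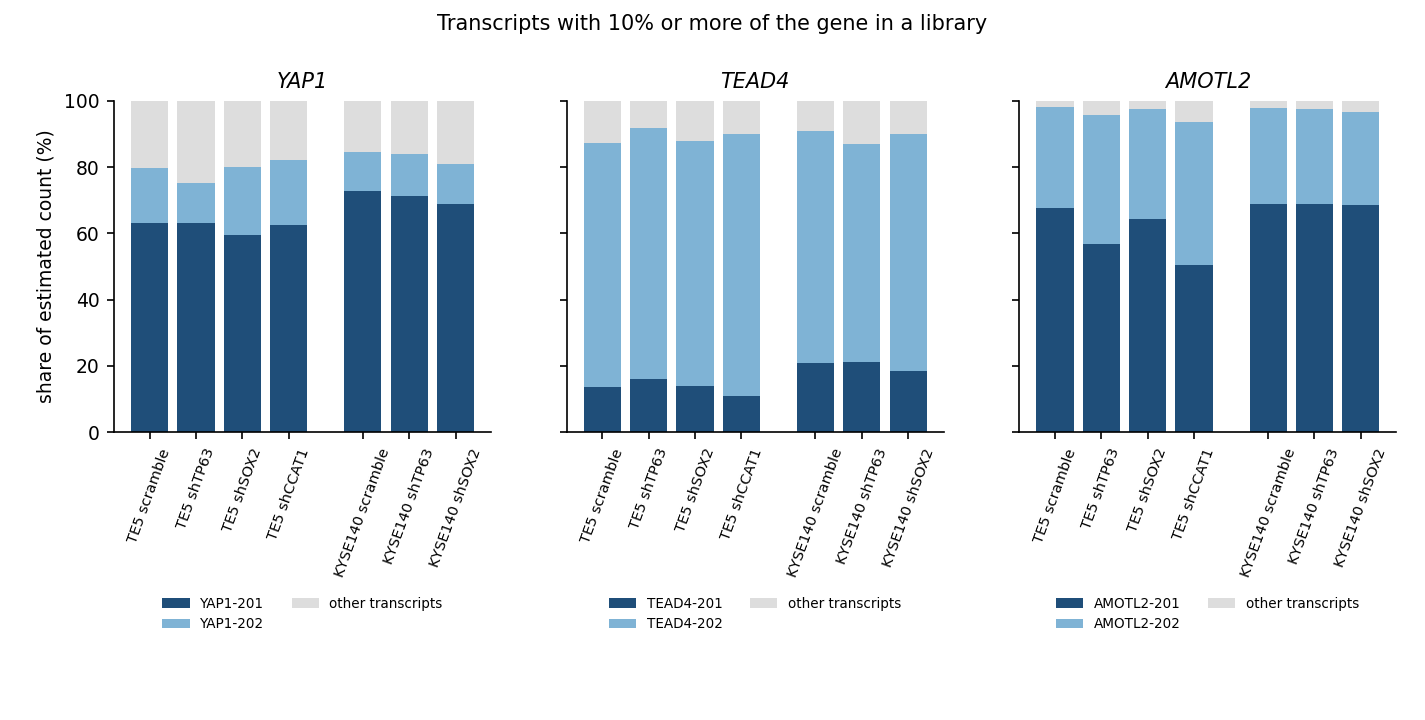
Share (%) of each gene's estimated count held by its main transcripts in the 7 libraries, for YAP1, TEAD4 and AMOTL2, with the remaining transcripts in grey. AMOTL2-202 takes a larger share in TE5 shTP63 (39.0%) and shCCAT1 (43.2%) than in TE5 scramble (30.4%) and is at 27.9% to 28.9% in KYSE140.

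The genes lie on 7 chromosomes (hg19): CCN1 at chr1:86046444-86050272, WWTR1 at chr3:149235022-149454501, AMOTL2 at chr3:134074189-134094321, TEAD3 at chr6:35441374-35464856, CCN2 at chr6:132269316-132272512, ANKRD1 at chr10:92671853-92680844, YAP1 at chr11:101981178-102104155, TEAD1 at chr11:12695968-12966284, TEAD4 at chr12:3068496-3149842 and LATS2 at chr13:21547175-21635725. Exons of YAP1, WWTR1 and CCN2 overlap exons of genes on the opposite strand, by 639, 756 and 278 bases, and those of AMOTL2 a pseudogene on the same strand by 187 bases. Whether counting used the strand is not given in the sources used here, so that reads in these stretches cannot be assigned to one gene with certainty. Of the 31-base words in the transcripts of these genes, 11.1% for YAP1, 11.5% for WWTR1 and 8.67% for CCN2 also occur in transcripts of other genes, and at most 2.38% for the other 7 genes. Among the TEAD genes, TEAD3 and TEAD4 share 26 such words, and the listed transcripts of TEAD1 share none with other genes of the annotation. Transcripts that the annotation does not list, ENST00000361905 next to TEAD1 among them, were not compared.

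Finally, the genes whose pattern over the 7 libraries was most like that of 4 of the targets were looked up among 16643 genes with at least 100 normalized counts in a library. Likeness was the root-mean-square difference of log2 normalized counts, each gene centred on its mean. The closest to ANKRD1 were COBL (0.542), CD70 (0.559) and RRAD (0.613), all with normalized counts that round to 0 in KYSE140 scramble, and all highest in TE5 shTP63. As they were picked for likeness over these same libraries, these shared traits follow from the choice. The closest to CCN2 were CHAC1 (0.401), SERPINA1 (0.422) and NOX1 (0.448), and the nearest of the other 9 genes was CCN1, at rank 105 (0.707). The closest to CCN1 were UPK2 (0.174), EHD1 (0.219) and DNAH1 (0.234), and the closest to AMOTL2 were LIPM (0.177), UNC93B1 (0.201) and TMEM86B (0.213). For ANKRD1, CCN1 and AMOTL2 the nearest of the other 9 genes ranked 1249, 950 and 338, so that none of these target genes had another of the 10 as its nearest neighbour. The measure includes the difference between the lines, so these ranks do not tell whether the genes changed alike upon silencing.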

How the data were processed

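The authors aligned paired-end reads to the hg19 Ensembl transcriptome with kallisto and deposited, for each of 7 libraries, estimated counts and TPM of 196354 transcripts. The kallisto version, strand setting and library preparation kit are not given in the sources used here. Transcripts were summed to genes by ID with the GENCODE v44lift37 annotation (hg19). The 13491 transcripts it does not list, with 6.31% to 6.55% of the estimated counts of a library, were left out, although the plan had counted those flanked by 1 gene with that gene; this is given as an alternative. Counts were rounded, scaled by TMM over 7 libraries and compared by pair (pseudocount 1; at least 10 counts in 1 of 2 libraries; Clopper-Pearson intervals at 95%, which cover counting error only). The test over both lines used edgeR 4.0.16 in R 4.3.3 (quasi-likelihood, filterByExpr, cell line as block, Benjamini-Hochberg adjusted p under 0.1, the level in the study's methods), with DESeq2 1.42.0 as an alternative. The test was run before use on simulated counts with the same layout of libraries. The simulation held no difference between the lines, so it cannot show how the test behaves on these data. Nothing in the labels says that the lines were handled as replicates. With the line as block, the p-values set a change against how far the changes differed between the lines. They do not measure the spread between cultures of one line. Named genes were the 10 genes, listed genes past a log2 fold change of 1 in at least 2 of 5 pairs with at least 100 normalized counts, and the 3 genes closest in pattern to each of 4 targets. The genes and lists were chosen with earlier results of these data known. Promoter sequences are from RefSeq (GRCh38.p14). Alternatives were other scalings, pseudocounts of 0.5 and 10, filters of 1 and 50 counts, TPM (pseudocount 0.1), unlisted transcripts counted with a neighbouring gene, all 7 libraries in the fit, and leaving out each library. The choice of transcripts next to a gene in the deposited order was made after the data were seen.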

Additional observations from a re-analysis of the deposited data

How the results depend on the processing

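Of the pairwise fold changes of the 10 genes, those past a limit of 1 stayed past it with DESeq2 size factors, pseudocounts of 0.5 and 10, filters of 1 and 50 counts, TPM, and unlisted transcripts counted with a neighbouring gene. With scaling by total count, CCN2 in TE5 shCCAT1 was no longer past it, which left 1 gene there. Without any scaling, which moves all genes by up to 0.58 on the log2 scale, 4 genes were past the limit in TE5 shTP63, 1 in TE5 shCCAT1 and 4 in KYSE140 shTP63. With a filter of at least 1 count, 1 gene in KYSE140 shSOX2 was past it, ANKRD1 with fewer than 3 normalized counts.

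The number of genes called over both lines depended on the tool, the filter and single libraries. Upon TP63 silencing it was 1851 with DESeq2, 1211 with a filter of at least 1 count, and 0 to 2129 with each library left out in turn, beside 220. Upon SOX2 silencing it was 703, 390 and 0 to 918, beside 34. For TP63 against SOX2 silencing it was 2620, 2050 and 127 to 2402, beside 988. It was 0 for both silencing contrasts without the scramble library of TE5 or of KYSE140; there edgeR left 1314 and 2426 genes at an unadjusted p under 0.05 upon TP63 silencing and 1228 and 1106 upon SOX2 silencing.

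Directions over both lines were reversed for values close to 0 or resting on 1 library. TEAD1 upon TP63 silencing went from 0.03 to -0.17 with unlisted transcripts flanked by it and to -0.08 with those next to it. Leaving out each library in turn gave upon TP63 silencing -0.01 to 0.04 for TEAD1, upon SOX2 silencing -0.11 to 0.18 for WWTR1, -0.58 to 0.10 for TEAD4, -0.64 to 0.50 for CCN2, -1.25 to 2.94 for ANKRD1 and -0.17 to 0.46 for AMOTL2, and for TP63 against SOX2 silencing -0.07 to 0.13 for YAP1, -0.18 to 0.10 for TEAD3, -0.56 to 0.22 for TEAD4, -0.19 to 2.33 for ANKRD1 and -0.04 to 0.59 for LATS2. The cause was not tested. CCN1, CCN2 and AMOTL2 upon TP63 silencing kept their direction under all alternatives run over both lines, and they passed an adjusted p of 0.1 in edgeR's quasi-likelihood test with a filter of at least 1 count (0.0119, 0.0194 and 0.0228) and without TE5 shSOX2 (0.0524, 0.0842 and 0.0731) or KYSE140 shSOX2 (0.0167, 0.0187 and 0.0294). They missed it without TE5 scramble (0.965, 0.953 and 0.96) or KYSE140 scramble (0.43, 0.593 and 0.578), CCN1 also without TE5 shTP63 (0.263), and CCN2 and AMOTL2 without KYSE140 shTP63 (values 0.72 and 0.37, adjusted p 0.338 and 0.346).

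With 1 library per condition and line, the difference between cultures of one condition is unknown, and no interval given here includes it. The shTP63 and shSOX2 libraries of a line share their scramble library, so a difference of that library enters both comparisons. At 63 to 70 normalized counts of CCN2 in KYSE140, and at 3 or fewer of ANKRD1 there, differences under the counting intervals are not detectable. Genes whose reads fit overlapping genes or several transcripts carry an error of assignment that the tables do not give.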
